A study of Mus musculus with 12 samples.

Results

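RNA captured with a biotin-tagged miR-27a mimic was compared with the whole-cell RNA of cells given that mimic. The 6 libraries, 3 of pulldown RNA and 3 of whole-cell RNA, were chosen by their titles from the 12 libraries of the series. All came from oligodendrocyte progenitor cells (OPCs) of C57BL/6 mouse brain, taken at postnatal day 6-7, kept proliferating in medium labelled SATO+PDGFRA and then transfected. The other 6 libraries, 3 of pulldown and 3 of whole-cell RNA, came from OPCs of the same strain and age that received a biotin-tagged control mimic, and they serve here as the background of the capture. The sources used here do not say how many animals were pooled, the sex of the animals, whether pulldown and whole-cell RNA came from the same dish, or whether replicates were separate cultures. Spread between libraries, on which the p-values rest, may thus be technical.

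OPCs are the dividing glial cells that give rise to myelinating oligodendrocytes, and they carry the PDGF receptor encoded by Pdgfra and the proteoglycan encoded by Cspg4. A microRNA is loaded into an Argonaute protein and pairs, mainly through a short stretch near its 5′ end called the seed, with sites in the 3′ untranslated region (UTR) of mRNAs, whose translation and stability it lowers. A mimic is a synthetic duplex that enters this pathway in place of the endogenous microRNA, and a biotin tag on it lets bound RNA be collected on streptavidin. Pulldown RNA holds the RNAs paired with the mimic together with any RNA that the beads or the complex retain in other ways.

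The sequence that the capture turns on is that of the mature miR-27a-3p strand, with the seed (bases 2 to 8) in capitals. It is encoded at chr8:84208727-84208747 on the plus strand and was taken from RefSeq (GRCm38.p6). Below it stand 22 bases of 3′ UTR from each of 6 genes, all ending with an 8mer site, ACTGTGAA in capitals, which is the complement of the seed followed by A. These are the genes with an 8mer and the largest rises in the pulldown, so their rise is how they were chosen. They are written on the strand of the mRNA from GENCODE M21 (GRCm38).
mmu-miR-27a-3p: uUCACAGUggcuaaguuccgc
Btg2, chr1:134076990-134077011, minus strand: gagcaaggttagcaACTGTGAA
Fam108c, chr7:84110549-84110570, minus strand: aaccttacctcattACTGTGAA
Pnrc1, chr4:33245682-33245703, minus strand: aaagtgaagatgtaACTGTGAA
Oprl1, chr2:181720084-181720105, plus strand: ttccctccaaaaccACTGTGAA
Enpp1, chr10:24640856-24640877, minus strand: tgacttttttttccACTGTGAA
Prr18, chr17:8342962-8342983, plus strand: gtctctctctcatcACTGTGAA

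The miR-27a libraries held 17441375 to 19106007 assigned reads in whole-cell RNA and 19995638 to 21899644 in pulldown RNA, and a gene with 0 reads was below 0.116 to 0.2 CPM (counts per 1000000 reads), the level of 3 reads, in all 12 libraries. This limit covers counting error only. The first principal component of the 6 libraries held 79.3% of the variance, with the 3 pulldown libraries on 1 side and the 3 whole-cell libraries on the other. Pulldown replicate 2 stood apart on the second, which held 11.1%, at -20.3 against 14.8 and 3.83 for pulldown replicates 1 and 3. Counts of replicate pairs differed by a chi-square per degree of freedom of 9.56 to 28.1 among the pulldown libraries and 1.82 to 2.48 among the whole-cell libraries. Mature miR-27a is too short for these libraries, and the Mir27a gene had 1 read in the 6 libraries together.

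Pulldown and whole-cell libraries also differed in sex-linked RNA. The Y-linked Ddx3y, an RNA helicase gene, stood at 131, 131 and 133 CPM in whole-cell RNA and at 24.7, 41.6 and 29.3 CPM in the pulldown. The other Y-linked genes measured, Eif2s3y, Kdm5d and Uty, fell as well, and the median difference of the 4 was -1.79 (log2) under miR-27a and -1.78 under control mimic. Xist, the non-coding RNA of the inactive X chromosome, stood at 102, 104 and 94.98 CPM and at 315, 407 and 318 CPM, a rise of 1.77 ± 0.10. The 4 X-linked homologs of the Y-linked genes had a median difference of -0.08, with Kdm5c and Kdm6a higher and Ddx3x and Eif2s3x lower, and the median turned to 0.03 when libraries were scaled by their totals. The sex-linked difference is present under both mimics, so a difference in the cells behind pulldown and whole-cell libraries and an effect of the capture cannot be told apart in any result given here.

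Of 13536 genes tested with limma, 7875 (58.2%) differed between pulldown and whole-cell RNA under miR-27a mimic at an adjusted p under 0.05. Of these, 3866 (28.6%) were higher and 4009 (29.6%) were lower in the pulldown. Differences are on the log2(CPM + 1) scale, which understates those of low genes, and are given as pulldown minus whole-cell RNA ± standard error over 3 against 3 libraries. The median over all genes tested was -0.01, the median size was 0.32, and the percentiles 5 and 95 were -0.74 and 0.78. A gene could pass the filter on low values through the pulldown or whole-cell libraries alone, so counts over the tested members of a family describe those members only. Only 293 genes (2.16%) were called with a rise of at least 2-fold and 216 (1.6%) with such a fall. Both counts depended on the pseudocount, at 115 and 107 with 5 CPM and 451 and 308 with 0.25 CPM. With limma voom on the recovered reads, which also changes the model, they were 540 and 361. Scaled by library totals, 4798 genes were higher and 3036 lower, so that 61.2% of the calls were higher against 49.1% with the authors' factors. That scaling moved the median of all genes by 0.10. Without pulldown replicate 2, 4137 genes were higher and 4510 lower.

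CPM values are shares of a library, and in bulk RNA fewer cells of a type and less RNA per cell cannot be told apart. The 10 largest rises, which the values themselves chose, were led by Fam19a4. Fam19a4 (now Tafa4), which encodes a small secreted chemokine-like protein, stood at 1.08, 1.54 and 1.41 CPM in whole-cell RNA and at 13.6, 12.7 and 12.8 CPM in the pulldown, a rise of 2.59 ± 0.12 (adjusted p 1.3e-07). Col1a2, a chain of type I collagen, stood at 0.7004, 0.533 and 0.957 CPM and at 11.3, 7.47 and 9.496 CPM, a rise of 2.58 ± 0.16. Atp10b, a lipid flippase of the P4-ATPase family, stood at 7.11, 6.04 and 6.36 CPM and at 36.4, 34.5 and 32.7 CPM, a rise of 2.25 ± 0.09. In each of these, the lowest pulldown library was several times above the highest whole-cell library. Spp1, the secreted phosphoprotein osteopontin, stood at 22.1, 24.98 and 24.8 CPM and at 116, 127 and 108 CPM, a rise of 2.24 ± 0.08. Dll3, a Notch ligand of neural precursors, stood at 18.4, 16.2 and 19.1 CPM and at 90.99, 77.4 and 83.6 CPM, a rise of 2.17 ± 0.09. The other 5, each without overlap between the groups, were Fam19a1 (2.20), the secreted binding protein gene Igfbp5 (2.10), the estrogen receptor gene Gpr30, now Gper1 (2.07), the neuregulin receptor gene Erbb3 (2.03) and the gelatinase gene Mmp2 (1.99).

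The 10 largest falls, chosen in the same way, included Mbp, Mobp, Tppp and a pair of Y-linked genes. Mbp, which encodes myelin basic protein, stood at 2599, 2338 and 2576 CPM in whole-cell RNA and at 434, 450.2 and 436 CPM in the pulldown, a change of -2.50 ± 0.07 (adjusted p 1.19e-08). Mobp, another myelin gene, stood at 7.705, 8.64 and 7.71 CPM and at 0.433, 0.527 and 0.512 CPM, a change of -2.60 ± 0.12. Tppp, a tubulin-binding protein gene of oligodendrocytes, stood at 312, 308 and 305 CPM and at 70.9, 75.6 and 73.8 CPM, a change of -2.05 ± 0.06. The pulldown libraries lay close together for each of these genes and far below the whole-cell libraries. Rny1, a small non-coding Y RNA, stood at 13.6, 22.6 and 15.9 CPM and at 3.41, 2.99 and 2.19 CPM, a change of -2.23 ± 0.18. Further falls without overlap were those of Ddc, an enzyme of monoamine synthesis (-2.36), the laminin gene Lama3 (-2.35), Kndc1 (-2.18), Eif2s3y (-2.10), Ddx3y (-2.04) and the LIM-domain gene Fhl2 (-1.89).

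**Figure D1:**
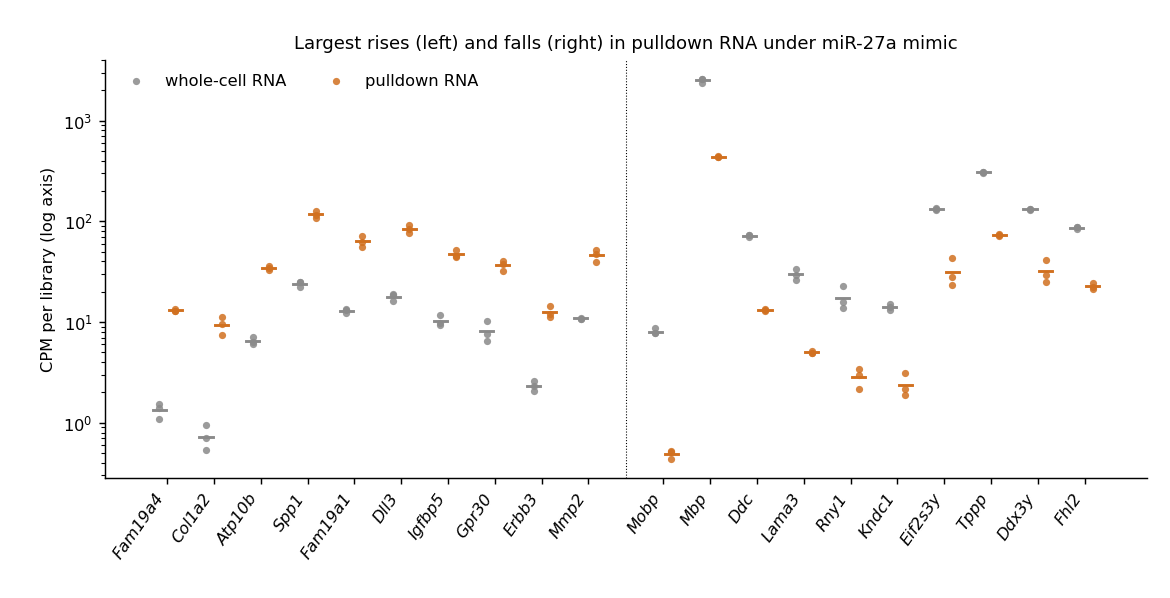
CPM per library on a log axis for the 10 genes with the largest rises and the 10 with the largest falls in pulldown RNA under miR-27a mimic, with 3 whole-cell libraries in grey, 3 pulldown libraries in orange and a bar at each mean. The groups do not overlap for any of the 20 genes, which is part of how they were chosen.

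Markers of OPCs were higher in the pulldown and genes of myelin were lower. Of 27 OPC markers tested, 21 rose and 1 fell, against 28.6% and 29.6% of all genes, and their median difference was 0.54. Pdgfra stood at 490.3, 507 and 510.4 CPM in whole-cell RNA and at 1610.2, 1506 and 1538 CPM in the pulldown, a rise of 1.62 ± 0.07 (adjusted p 8.99e-08). Cspg4 stood at 23.2, 21.6 and 22.8 CPM and at 73.6, 50.9 and 60.8 CPM, a rise of 1.40 ± 0.12. Both genes were higher in every pulldown library than in any whole-cell library, and pulldown replicate 2 was the lowest of its group for each. Olig2, a transcription factor of the oligodendrocyte lineage, rose by less, from 178, 167 and 174 CPM to 333, 303 and 329 CPM (0.89 ± 0.07). The receptor phosphatase gene Ptprz1 (1.14) and the protease inhibitor gene Serpine2 (0.91) also rose. The 1 marker that fell, named after its value was seen, was S100a1 (-0.68).

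Of 24 myelin and mature oligodendrocyte genes tested, 16 fell and 2 rose, with a median of -0.69, and 9 of the falls were at least 2-fold. Mag, an adhesion protein of the myelin sheath, stood at 738, 733 and 752 CPM in whole-cell RNA and at 214, 218 and 229 CPM in the pulldown, a change of -1.74 ± 0.06. Opalin, a membrane protein of oligodendrocytes, stood at 85.4, 86.7 and 84.2 CPM and at 30.6, 31.7 and 32.7 CPM, a change of -1.40 ± 0.07. For both genes every pulldown library was below every whole-cell library. Of 18 genes of committed and newly formed oligodendrocytes, 13 fell and 4 rose, with a median of -0.35. In that list the deacetylase gene Sirt2 (-1.34), Bcas1 (-1.01) and the GTPase gene Rras2 (-0.99) fell, whereas Dll3 rose.

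Markers of other cell types moved with the pulldown in both directions. Among 16 astrocyte markers 8 fell and 3 rose (median -0.33, range -1.30 to 1.09). Gfap, the intermediate filament of astrocytes, stood at 1205, 1113 and 1171 CPM in whole-cell RNA and at 595, 449 and 550.2 CPM in the pulldown, a change of -1.14 ± 0.10, and the calcium-binding protein gene S100b (-1.20), Aldh1l1 (-1.30) and the water channel gene Aqp4 (-0.81) fell too. Among 14 neuronal markers 8 fell and 2 rose (median -0.30, range -1.38 to 0.50). Snap25 of the synaptic fusion machinery was at -1.38 and the tubulin regulator gene Stmn2 at -1.02. Among the 9 of 13 endothelial, mural and fibroblast markers that could be tested, 7 rose and 2 fell (median 1.57, range -0.97 to 2.58). Col3a1, a fibrillar collagen, stood at 89.4, 91.3 and 93.3 CPM in whole-cell RNA and at 271, 262 and 289 CPM in the pulldown, a rise of 1.57 ± 0.07, and the matrix proteoglycan genes Dcn (1.79) and Lum (1.75) rose as well. Of the 4 of 8 ependymal and choroid markers that could be tested, 2 rose and 1, Foxj1, fell (median 0.53). Ttr, the thyroid hormone carrier made by choroid plexus, stood at 65.3, 53.6 and 59.8 CPM and at 199.5, 228 and 227 CPM, a rise of 1.86 ± 0.09. Among the 11 of 14 microglial markers that could be tested, 2 rose and 2 fell (median 0.08). Tmem119 (0.80) was among those that rose, and those that fell were Cx3cr1 (-0.43) and Itgam (-0.35). The calls of Cx3cr1 and Itgam were lost without pulldown replicate 1, whole-cell replicate 1 or whole-cell replicate 3, with adjusted p up to 0.0698 and 0.125 over the settings.

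The summed level of the 9 defining OPC markers was 2274 to 2295 CPM in whole-cell RNA and 4120.4 to 4302 CPM in the pulldown. All 9 passed the filter on low values, and markers of other cells were present in the same libraries. The sum of 8 mature oligodendrocyte markers was 10656 to 11038 CPM in whole-cell RNA and 3763 to 4798 CPM in the pulldown, and that of 8 astrocyte markers was 6613 to 6674 and 3711 to 4151 CPM. The 10 neuronal markers summed to 597 to 623 and 477 to 504 CPM. Sums of the remaining sets were higher in the pulldown. They ran from 62.4-63.4 to 87.03-101 CPM for microglia, from 40.96-45.5 to 107-126 CPM for endothelial, mural and fibroblast cells, and from 93.8-108 to 227-253 CPM for ependymal and choroid cells. The ependymal and choroid sum was carried by Ttr, since of 3 markers tested 1 rose and 1 fell (median -0.13), and of 7 microglial markers tested 2 rose and 2 fell (median 0.10). No defining marker of any set was at 0 reads in all 6 libraries, and 8 of them (Ermn, Aif1, Rbfox3, Slc17a7, Pecam1, Cldn5, Dynlrb2 and Tmem212) did not pass the filter. The part of these markers in the other results was not tested.

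**Figure D2:**
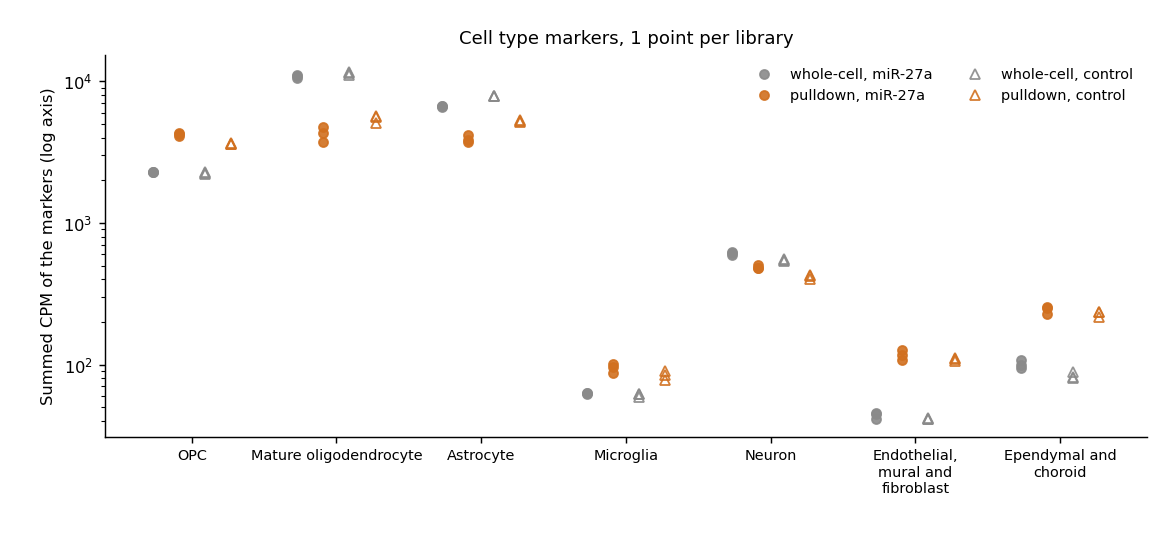
Summed CPM of the defining markers of 7 cell types on a log axis, 1 point per library, for whole-cell (grey) and pulldown RNA (orange) under miR-27a (filled circles) and control mimic (open triangles). The OPC sum is higher and the mature oligodendrocyte sum lower in every pulldown library than in any whole-cell library, under both mimics.

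Matrix and integrin genes, the low-density lipoprotein receptor family with giant adhesion genes, clustered protocadherins and potassium channels each had more members higher than lower in the pulldown. Of 40 integrin, laminin, collagen and fibronectin genes, which build and bind the extracellular matrix, 30 rose and 4 fell (median 0.65). Lamb1, a laminin chain, stood at 12.8, 13.3 and 12.2 CPM in whole-cell RNA and at 35.1, 35.8 and 38.3 CPM in the pulldown, a rise of 1.44 ± 0.08, and Col18a1 rose by 1.75, whereas Lama3 was among the largest falls. Of 22 genes of the low-density lipoprotein receptor family and giant adhesion proteins, 16 rose and 2 fell (median 0.58). Lrp1, an endocytic receptor, stood at 69.8, 56.8 and 63.8 CPM and at 248, 164 and 225 CPM, a rise of 1.71 ± 0.13, with pulldown replicate 2 the lowest of its group. The protocadherin gene Pcdh15 (1.51) and the giant cadherin genes Dchs1 (1.32) and Fat4 (1.14) rose as well. Of the 52 of 58 clustered protocadherin genes that could be tested, which encode neural cell surface proteins from arrays with shared exons, 33 rose and 0 fell (median 0.41). Pcdhgc3 showed the strongest evidence, at 50.8, 40.2 and 43.9 CPM and 128, 96.9 and 112 CPM (1.30 ± 0.11), but reads of the shared exons could be split between members in the authors' counting. Of 26 potassium channel genes, 16 rose and 2 fell (median 0.41), led by Kcna1, which stood at 15.2, 13.9 and 14.9 CPM and at 51.1, 55.3 and 50.4 CPM (1.77 ± 0.08). Kcna5 (1.59), Kcnd2 (1.05) and Kcnk10 (0.89) rose too.

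Of the families added after the values were seen, solute carriers, transmembrane protein genes and genes named as ADAM or ADAMTS had more members higher than lower. Among the tested 229 of 341 solute carriers 131 rose and 22 fell (median 0.33). Among the tested 170 of 211 genes named as transmembrane proteins 103 rose and 12 fell (median 0.33, with 118 and 5 with library totals). Among the tested 29 of 51 genes with an ADAM or ADAMTS symbol, chosen by name and not by protease activity, 21 rose and 1 fell (median 0.46). Slc38a2, an amino acid transporter, stood at 203, 198 and 199.7 CPM in whole-cell RNA and at 411, 443 and 417 CPM in the pulldown, a rise of 1.08 ± 0.06. Slc27a3 (1.68), Slc38a1 (1.25), Tmem35 (1.42), Tmem178 (1.32) and Adamtsl1 (1.34) rose too, while Tmem163 (-0.99) and the protease gene Adamts4 (-1.63) fell. Of 27 chaperones and translocon genes of the endoplasmic reticulum, where such proteins are made, 20 rose and 4 fell (median 0.36). Manf, a protein of the reticulum lumen, stood at 166, 167 and 172 CPM and at 278, 248 and 259.9 CPM, a rise of 0.63 ± 0.07, and the disulfide isomerase genes Pdia6 (0.60) and Pdia4 (0.56) and the signal peptidase gene Spcs2 (0.65) rose. Glutamate and GABA receptors were mixed, with 12 of 28 higher and 7 lower (median 0.19). Grin3a (0.82), Gria3 (0.80) and Gabra3 (0.98) rose, and Grm7, a presynaptic metabotropic receptor gene, fell from 50.5, 48.6 and 49.2 CPM to 13.1, 15.2 and 17.7 CPM (-1.63 ± 0.10).

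Proteasome, cytoskeleton and glycolysis genes were lower in the pulldown. Of 31 proteasome subunits, which degrade ubiquitin-tagged proteins, 30 fell and 0 rose, with a median of -0.46 and a range from -0.77 to 0.00. Psmd14 stood at 189, 194 and 188 CPM in whole-cell RNA and at 108, 122 and 105 CPM in the pulldown, a change of -0.77 ± 0.07, and Psmc2 (-0.64), Psma4 (-0.63) and Psma3 (-0.60) fell too. Of 26 actins, tubulins and their small regulators, 25 fell and 0 rose (median -0.68). Actb stood at 6158, 6077 and 6340.3 CPM and at 3984, 2972 and 3641 CPM, a change of -0.82 ± 0.11. Arpc1b of the actin-nucleating complex (-1.34), Tubb2a (-0.97) and the actin-severing protein gene Dstn (-0.87) fell without overlap between the groups. Of 17 genes of glycolysis, 14 fell and 0 rose (median -0.60). Pfkl, a phosphofructokinase subunit, stood at 129.7, 117 and 125 CPM and at 52.7, 49.1 and 63.7 CPM, a change of -1.16 ± 0.10, and Aldoa (-1.19), Tpi1 (-0.90) and Aldoc (-0.99) fell. Gapdh fell from 54.96, 49.3 and 59.03 CPM to 41.9, 32.2 and 33.3 CPM (-0.60 ± 0.11), but near-identical pseudogenes make its counting uncertain.

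Ribosomal and mitochondrial genes differed by less. Of 80 cytosolic ribosomal proteins, 20 fell and 0 rose, against 29.6% and 28.6% of all genes, with a median of -0.13. Set against the mean of whole-cell RNA, their median was 0.02, -0.27 and -0.13 in pulldown replicates 1, 2 and 3, so the pulldown libraries did not move together. Rpl4 stood at 933, 917 and 920.4 CPM and at 713, 717 and 718 CPM, a change of -0.37 ± 0.06. Scaled by library totals, 10 of the 80 fell and the median was -0.02. Under control mimic 63 of the 80 fell and 0 rose (median -0.20), and 0 were called in the difference between mimics. In a list of 36 genes, mainly translation initiation and elongation factors but also holding Nap1l1 (-0.66), 23 fell and 4 rose (median -0.34). The initiation factor genes Eif2s2 (-0.97), Eif2s1 (-0.82) and Eif3a (-0.78) led them. Of 75 nuclear-encoded subunits of the respiratory chain and ATP synthase, 47 fell and 4 rose (median -0.27). Scaled by library totals these were 28 and 8. Ndufv3 of complex I (-0.90), Atp5e (-0.67), Uqcrfs1 (-0.52) and cytochrome c, Cycs (-0.50), fell. Of 76 mitochondrial ribosomal proteins, a family added after the values were seen, 42 fell and 0 rose (median -0.24), or 22 and 3 with library totals. Mrps6 (-0.77) and Mrps31 (-0.47) were among them.

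Other families were divided. In cholesterol synthesis 12 of 23 genes rose and 9 fell (median 0.20). Hmgcs1, the synthase that feeds the pathway, fell from 3681, 3889.8 and 3705 CPM to 2192, 2389 and 2219.6 CPM (-0.73 ± 0.08), while the epoxidase gene Sqle rose from 389, 403 and 416 CPM to 603, 591 and 588 CPM (0.56 ± 0.06). The isomerase gene Idi1 (-0.76) and the cyclase gene Lss (-0.55) fell. Families added after the values were seen included 60 Rab GTPases with 25 lower and 9 higher (median -0.12, with 25 lower, 18 higher and a median of -0.03 with library totals), and 35 kinesins with 14 lower and 4 higher (median -0.18). They also included 33 ubiquitin-conjugating enzymes with 9 lower and 5 higher (median -0.06, 0.04 with library totals). These are 27.3% and 15.2%, against 29.6% and 28.6% of all genes. The late endosomal GTPase gene Rab7 (-0.86), the motor genes Kif5b (-1.15) and Kif21a (-1.26), and Ube2l3 (-0.74) fell, and the motor gene Kif13a rose (0.94).

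**Figure D3:**
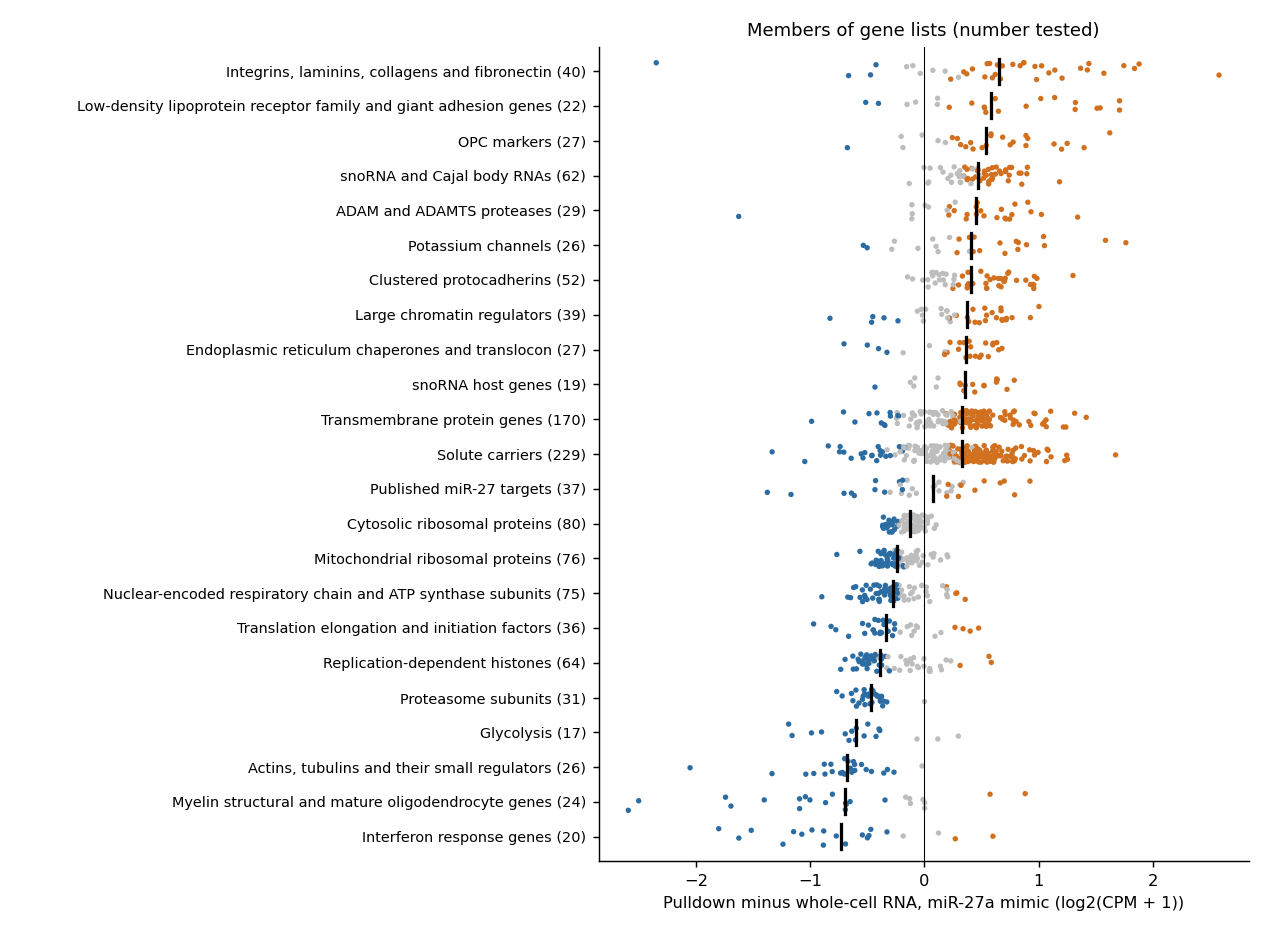
Difference between pulldown and whole-cell RNA under miR-27a mimic for each tested member of 23 gene lists, in orange where higher and in blue where lower at an adjusted p under 0.05 and in grey otherwise, with a black bar at each list's median. Medians of matrix, adhesion and membrane protein lists lie to the right of 0, and those of proteasome, glycolysis, cytoskeleton, myelin and interferon lists lie to the left.

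Small nucleolar and Cajal body RNAs, which guide chemical modification of ribosomal and spliceosomal RNA, were higher in the pulldown. Of 62 tested of 116 in the table, 39 rose and 0 fell (median 0.47). Scarna10 stood at 183, 179.7 and 166 CPM in whole-cell RNA and at 371, 328 and 296 CPM in the pulldown, a rise of 0.90 ± 0.09, and Scarna13 at 101, 96.1 and 104 CPM and at 188, 165 and 184 CPM, a rise of 0.83 ± 0.07. Reads of these RNAs can also come from the introns of their host genes. Of 19 tested host genes of small nucleolar RNAs, 13 rose and 1 fell (median 0.36), among them Snhg7 (0.72), Snhg12 (0.63) and 1500012F01Rik, now Zfas1 (0.64). As a class, small nucleolar and Cajal body RNAs made up 0.0685% to 0.0757% of whole-cell CPM and 0.112% to 0.126% of pulldown CPM.

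Nuclear long non-coding RNAs went both ways. Malat1, a nuclear speckle RNA, stood at 11077, 10470.5 and 10583 CPM in whole-cell RNA and at 4353, 6579 and 5077 CPM in the pulldown, a change of -1.03 ± 0.14. Neat1, the scaffold of paraspeckles, stood at 149, 132 and 152 CPM and at 56.9, 92.1 and 70.99 CPM, a change of -0.99 ± 0.14. Rian, a maternally expressed imprinted RNA, stood at 136, 131 and 131 CPM and at 277, 375 and 296 CPM, a rise of 1.24 ± 0.10. Malat1, Neat1 and Rian were all highest, among pulldown libraries, in replicate 2. Of 21 such RNAs tested, 10 rose and 5 fell (median 0.20), with the imprinted RNA Peg13 (1.29) among the rises and 6720401G13Rik, now Firre (-1.16), among the falls. Over all genes annotated as long non-coding, 101 of 426 tested rose and 66 fell (23.7% and 15.5%, median 0.09). Over pseudogenes 18 of 146 rose and 40 fell (12.3% and 27.4%). Over all genes tested 28.6% rose and 29.6% fell.

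Among abundant small non-coding RNAs 5 of 15 were higher and 5 lower, near the 28.6% and 29.6% of all genes (median 0.03). That median changed sign without pulldown replicate 2 (-0.23) and under 3 other settings. Rpph1, the RNA of the tRNA-processing ribonuclease P, stood at 3532, 3300.1 and 3525 CPM and at 1055, 994 and 1197 CPM, a change of -1.68 ± 0.09. Rny3, a Y RNA, stood at 12.2, 13.1 and 11.8 CPM and at 5.48, 4.53 and 4.096 CPM, a change of -1.23 ± 0.12. Rn45s, the ribosomal RNA precursor, stood at 7995, 7947 and 8466 CPM and at 16082, 16795 and 22331 CPM, a rise of 1.16 ± 0.13, so the libraries also differed in ribosomal RNA reads. Its part in the other results was not tested. The 7SK gene Rn7sk, named after its value was seen, fell (-0.51 ± 0.12), and its call was lost with no filter on low values (adjusted p 0.241, range 0.00011 to 0.241 over the settings).

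Histone and cell division genes were lower or undivided. Of 64 replication-dependent histone genes, whose copies are nearly identical and may share reads, 34 fell and 3 rose (median -0.39). Their medians in pulldown replicates 1, 2 and 3 were -0.18, -0.74 and -0.19, so replicate 2 was the lowest, and 19 fell when scaled by library totals. Hist1h2bc (-0.55 ± 0.09) and Hist1h1e (-0.51 ± 0.10) fell, while Hist1h4i rose (0.57 ± 0.10). Of 9 replacement histones, 1, H1f0, rose (0.64) and 1, H3f3a, fell (-0.72), with a list median of -0.03 that was 0.07 with library totals. Of 26 G1/S genes, which act in DNA replication, 17 fell and 1 rose (median -0.31), or 10 and 2 with library totals. The replicative helicase gene Mcm4 stood at 92.1, 89.1 and 93.3 CPM and at 52.8, 46.8 and 48.2 CPM, a change of -0.88 ± 0.07, and Pola1 (-0.77) and the sliding clamp gene Pcna (-0.61) fell. Of 28 G2/M genes, 10 fell and 3 rose (median -0.11), or 9 and 5 with library totals. Cenpf, a kinetochore protein gene, stood at 168, 163 and 156 CPM and at 52.8, 106 and 66.7 CPM, a change of -1.16 ± 0.19 with a wide spread in the pulldown, and Top2a (-0.44), Hmmr (-0.46) and Anln (-0.41) fell by less.

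Genes of the interferon response were lower. Of 20 tested, 16 fell and 2 rose (median -0.73). The guanylate-binding protein gene Gbp3 stood at 17.9, 24.7 and 20.4 CPM in whole-cell RNA and at 5.77, 5.85 and 6.61 CPM in the pulldown, a change of -1.63 ± 0.12. Ifit1, a sensor of foreign RNA, was low throughout, at 3.23, 5.15 and 4.501 CPM and 0.385, 0.659 and 0.465 CPM, and fell (-1.80 ± 0.16). Immediate early genes, which respond quickly to stimuli, were mostly higher or not called, with 10 of 19 higher and 1 lower (median 0.41). Jun stood at 71.1, 67.2 and 77.7 CPM and at 129, 129.98 and 143 CPM, a rise of 0.89 ± 0.08, and Myc (0.95) and Ier5 (0.89) rose. In the integrated stress response 5 of 18 were higher and 6 lower, near the 28.6% and 29.6% of all genes (median -0.01). With library totals the median was 0.10 and 2 were lower. Atf4 differed by 0.37 and the serine synthesis gene Phgdh by -0.82.

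Genes of nuclear regulators differed by kind. Of 39 large chromatin regulators, 22 rose and 5 fell (median 0.38). Ep300, a histone acetyltransferase gene, stood at 18.4, 19.00 and 16.9 CPM and at 39.1, 36.5 and 36.4 CPM, a rise of 1.00 ± 0.08, and the remodeller gene Chd7 (0.93), Crebbp (0.72) and the methyltransferase gene Mll1, now Kmt2a (0.72), rose too. Of 30 genes of SR splicing proteins and genes with detained introns, 15 fell and 4 rose (median -0.25), with the splicing regulators Tra2b (-0.65) and Tra2a (-0.67) and the U1 protein gene Snrnp70 (-0.60) lower and Srrm1 (0.83) higher. Of the 320 zinc finger protein genes of the Zfp series tested, the balance depended on the scaling, with 60 higher and 64 lower and a median of 0.01, against 96 higher, 48 lower and a median of 0.11 with library totals. The median was -0.04 without pulldown replicate 2. Zfp704 (1.02) and Zfp12 (0.81) had the strongest evidence among them and rose.

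Of the miRNA silencing and processing machinery, 11 of 26 genes were higher and 4 lower (median 0.19), or 14 and 2 with library totals. Eif2c2, which encodes Argonaute 2, stood at 18.6, 17.9 and 16.6 CPM in whole-cell RNA and at 29.00, 26.9 and 25.4 CPM in the pulldown, a rise of 0.59 ± 0.09. Eif2c4, which encodes Argonaute 4, stood at 25.4, 23.8 and 27.7 CPM and at 43.2, 52.1 and 44.4 CPM, a rise of 0.83 ± 0.09. Tnrc6a, whose protein binds Argonaute, stood at 122, 124 and 125 CPM and at 126, 165 and 144 CPM, a difference of 0.22 ± 0.09 that was not called (adjusted p 0.0586, 0.00333 to 0.149 over the settings). Its relatives Tnrc6b (0.60) and Tnrc6c (0.63) rose. The remaining Argonaute genes, named after their values were seen, went apart, with Eif2c1 at 0.38 and Eif2c3 at -0.30, and both calls were lost without pulldown replicate 3. That of Eif2c3 was also lost without whole-cell replicate 1 or 2 and with library totals. Their adjusted p ran from 0.000232 to 0.0515 and from 0.00373 to 0.0869 over the settings.

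Published targets of miR-27 were called in shares near those of all genes. Of 37 tested of 45, 10 rose and 11 fell, with a median of 0.08 under miR-27a and 0.06 under control mimic. With library totals 12 rose and 7 fell. The median under miR-27a was -0.07 with a filter of 5 CPM. Plk2, a polo-like kinase gene with an 8mer, stood at 55.4, 56.5 and 54.5 CPM in whole-cell RNA and at 87.8, 92.3 and 92.2 CPM in the pulldown, a rise of 0.70 ± 0.07. Rxra, the retinoid X receptor gene, also with an 8mer, stood at 13.7, 12.8 and 15.9 CPM and at 27.3, 27.6 and 28.1 CPM, a rise of 0.92 ± 0.09. Spry2, an inhibitor of receptor tyrosine kinase signalling with an 8mer, stood at 20.8, 18.3 and 18.6 CPM and at 33.95, 34.9 and 33.00 CPM, a rise of 0.79 ± 0.08. In all 3 genes the groups did not overlap. Under control mimic the pulldown rises were 0.26 for Plk2, 0.75 for Rxra and 0.83 for Spry2. The limma test of the difference between mimics called Plk2 (adjusted p 0.0134) but not Rxra (0.647) or Spry2 (0.928). The list also holds Snap25, which has a 7mer and fell.

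Sites of the miR-27a seed were counted in the longest annotated 3′ UTR. The 8mer was ACTGTGAA and the 7mers were ACTGTGA and CTGTGAA, on the strand of the mRNA, and a 7mer within an 8mer was counted as the 8mer. Of 17029 genes with a 3′ UTR, 6.12% held an 8mer and 21.5% held a 7mer with no 8mer. Among tested genes, 278 of 851 with an 8mer rose and 210 fell (32.7% and 24.7%), 966 of 2971 with a 7mer rose and 834 fell (32.5% and 28.1%), and 2352 of 8741 with no site rose and 2799 fell (26.9% and 32.0%). The median differences were 0.05, 0.03 and -0.05 under miR-27a and 0.06, 0.05 and -0.02 under control mimic. Genes with a site had longer 3′ UTRs, with medians of 2586, 2276 and 924 bases for the 3 sets. The order of the site classes changed over quintiles of 3′ UTR length. From the shortest to the longest 3′ UTRs, the medians under miR-27a were -0.14, 0.02, 0.07, -0.01 and 0.06 with an 8mer, -0.11, -0.10, 0.01, 0.05 and 0.08 with a 7mer, and -0.13, -0.04, -0.04, 0.04 and 0.07 with no site. In the middle quintile 38.1% of 126 genes with an 8mer and 28.4% of 1856 with no site rose, and in the longest 33.2% of 392 and 35.3% of 959. Under control mimic the medians in the middle quintile were 0.13 with an 8mer and 0.00 with no site. The 49 genes with 2 or more 8mers had a median of 0.15 under miR-27a and 0.16 under control mimic.

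The 6 genes whose sites are printed above were also higher in the pulldown of the control mimic. Btg2, an antiproliferative immediate early gene, stood at 22.5, 23.9 and 24.5 CPM in whole-cell RNA and at 67.96, 72.8 and 73.7 CPM in the pulldown under miR-27a (1.56), and at 23.97, 25.9 and 26.7 CPM and 52.02, 49.99 and 57.6 CPM under control mimic (1.03). Fam108c, now Abhd17c, stood at 23.3, 23.3 and 22.2 CPM and at 61.1, 57.5 and 54.1 CPM under miR-27a (1.29), against 29.6, 26.3 and 25.4 CPM and 77.8, 83.5 and 77.2 CPM under control mimic (1.52). Enpp1, an ectoenzyme that makes pyrophosphate, stood at 4.47, 4.44 and 5.12 CPM and at 11.98, 12.9 and 11.7 CPM under miR-27a (1.22), against 3.44, 3.14 and 3.203 CPM and 11.4, 11.7 and 12.3 CPM under control mimic (1.58). For Pnrc1, a nuclear receptor coactivator gene, the differences were 1.25 and 1.35, for the nociceptin receptor gene Oprl1 1.25 and 1.13, and for Prr18 1.15 and 1.03. Of the 6, Btg2 passed the test of the difference between mimics (0.53 ± 0.11, adjusted p 0.0191), which is not independent of a choice made on the rise under miR-27a. The adjusted p of the other 5 in that test ran from 0.273 to 0.858.

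What the RNAs higher in the pulldown shared was described over quintiles of protein-coding genes. The median difference rose with transcript length, from -0.16 in the shortest quintile to 0.13 in the longest, and with GC content, from -0.20 to 0.09. It rose with 3′ UTR length from -0.12 to 0.08, and the number of exons left it between -0.05 and 0.01. Over the level in whole-cell RNA under control mimic, which shares no library with the comparison, it fell from 0.18 in the lowest quintile to -0.26 in the highest. In that lowest quintile 34.5% of genes rose and 10.9% fell, and in the highest 18.9% rose and 1386 of 2520 fell. A gene in the lowest quintile could pass the filter through the pulldown alone, and log2(CPM + 1) shrinks the differences of low genes. Across genes, which are not independent and share the same 6 libraries, Spearman's rho was 0.184 with length over 12569 genes, 0.195 with GC content and -0.310 with level. Under control mimic, rho was 0.141 with length and 0.318 with GC content.

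**Figure D4:**
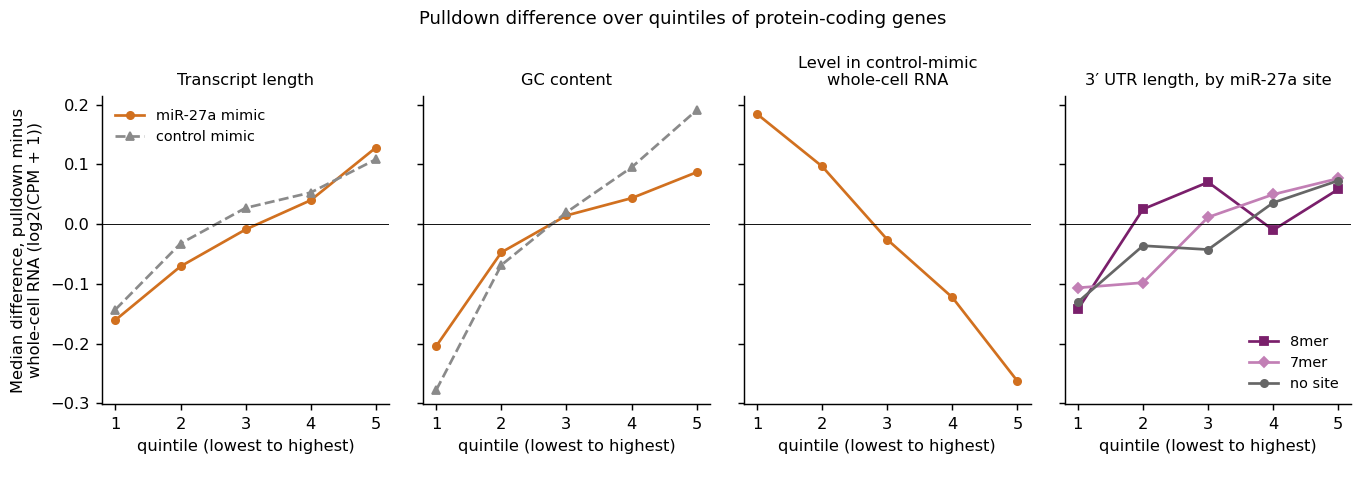
Median difference between pulldown and whole-cell RNA on the log2(CPM + 1) scale over quintiles of protein-coding genes by transcript length, GC content and level in control-mimic whole-cell RNA, and over quintiles by 3′ UTR length for genes with an 8mer, a 7mer or no miR-27a site. The first panels rise under miR-27a (orange) and control mimic (grey), the third falls, and the 3 site classes change order along the axis and end between 0.06 and 0.08 in the quintile of longest 3′ UTRs.

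The same comparison was made with the control mimic, as the background of capture without miR-27a. Of 13551 genes tested there, 8821 (65.1%) were called, of which 4436 (32.7%) were higher and 4385 (32.4%) were lower in the pulldown. The comparisons share no library. Across 13349 genes tested under both mimics, Pearson's r was 0.904 and Spearman's rho 0.904, and 97.7% of 7805 genes called under miR-27a had the same sign under control mimic. Genes higher under both numbered 3267, which is 85.7% of those higher under miR-27a and 74.4% of those higher under control mimic. Genes lower under both numbered 3404, or 85.2% and 77.9%. Opposite calls were made for 27 genes. These are 6 genes higher under miR-27a and lower under control mimic, and 21 the other way.

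In the test of the difference itself, over all 12 libraries, 149 of 13875 genes (1.07%) were called. The pulldown difference was greater under miR-27a for 47 (0.339%) and smaller or more negative for 102 (0.735%). These counts rest on single libraries. Without pulldown miR-27a replicate 1 they were 157 and 202, and without replicate 2 they were 159 and 314. Leaving out control pulldown replicate 3, control whole-cell replicate 1 or 3, or any 1 of the miR-27a whole-cell libraries gave 21 to 25 and 22 to 44, and without control pulldown replicate 1 the lower count was 56. Those greater under miR-27a were 2 of 851 genes tested with an 8mer, 7 of 2971 with a 7mer and 36 of 8741 with no site, and the median difference between mimics was -0.02, -0.01 and -0.02 for these sets.

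The genes described next, and Ssh3 further below, include the 5 largest differences of each sign among called genes that passed filters. Their sizes are thus how they were chosen. The filters were 5 CPM in the highest group, no provisional symbol and no overlap between pulldown and whole-cell libraries under miR-27a. A gene whose libraries separated only under control mimic could thus not be among them. Among the genes greater under miR-27a, Fam19a4 rose by 2.59 under miR-27a and 0.90 under control mimic, a difference of 1.69 ± 0.20 (adjusted p 0.000217). In control-mimic libraries it stood at 1.02, 0.888 and 1.27 CPM in whole-cell RNA and at 2.34, 3.36 and 2.85 CPM in the pulldown, well below its level in the miR-27a pulldown. Atp10b stood at 7.84, 7.34 and 6.54 CPM and at 14.9, 16.5 and 16.4 CPM under control mimic, and its rises differed by 1.20 ± 0.14. Capn6, a calpain family gene without protease activity, was higher in the miR-27a pulldown, at 49.8, 46.7 and 48.4 CPM and 60.7, 68.5 and 63.1 CPM, and lower in the control pulldown, at 36.3, 34.1 and 35.6 CPM and 25.5, 21.9 and 23.1 CPM. The difference was 0.97 ± 0.10. Of 28 potassium channels in this test, 3 were among the 47, against 0.339% of all genes tested. They were Kcna5 (1.21 ± 0.21), Kcna1 (0.93 ± 0.13) and Kcnd2 (0.47 ± 0.09). For Kcna5 the control libraries stood at 1.47, 1.42 and 1.201 CPM and 2.098, 2.47 and 1.66 CPM, a difference of 0.37 that was not called. Srp54b had the largest of these differences (2.60 ± 0.49), but it has near-identical copies among the Srp54 genes of the signal recognition particle. Its whole-cell libraries under miR-27a were uneven, at 6.57, 2.49 and 2.42 CPM. Its count is uncertain, and its call was lost with no filter on low values (adjusted p 0.0985) and when replicate 3 of whole-cell RNA under miR-27a was left out (adjusted p 0.057).

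Among the genes smaller or more negative under miR-27a, 7 of 24 myelin and mature oligodendrocyte genes were called, against 0.735% of all genes tested. Mbp fell under both mimics (-2.50 under miR-27a and -1.83 under control mimic). In the control libraries it stood at 2625, 2985 and 2858 CPM and at 848, 725 and 815 CPM, and the difference was -0.68 ± 0.10 (adjusted p 0.00249). Mag changed by -1.74 and -0.96, a difference of -0.78 ± 0.11, and Opalin by -1.40 and -0.97, a difference of -0.44 ± 0.09. Nkx6-2, a homeobox gene of maturing oligodendrocytes, moved in opposite directions, from 49.6, 46.3 and 52.6 CPM to 33.5, 39.1 and 44.2 CPM under miR-27a and from 32.5, 41.7 and 35.5 CPM to 52.7, 54.4 and 61.8 CPM under control mimic. Its difference was -0.96 ± 0.14, and its fall under miR-27a was not called with library totals or without whole-cell miR-27a replicate 3. The secretory granule gene Scg2 also went in opposite directions, at -0.54 under miR-27a and 0.31 under control mimic. Gng4, a G protein subunit gene, and Foxj1, a regulator of motile cilia, fell under miR-27a (-0.95 and -0.78) and were not called under control mimic (-0.10 and 0.03). Mean Foxj1 was 36.2 CPM in whole-cell RNA and 20.8 CPM in the pulldown under miR-27a, and 21.4 and 21.9 CPM under control mimic. Mean Gng4 was 41.0 and 20.8 CPM under miR-27a, and 29.2 and 27.2 CPM under control mimic. Whole-cell levels of both genes thus also differed between mimics. The summed mature oligodendrocyte markers were 3763 to 4798 CPM in the miR-27a pulldown and 5121 to 5723 CPM in the control pulldown. Their part in the differences between mimics was not tested.

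**Figure D5:**
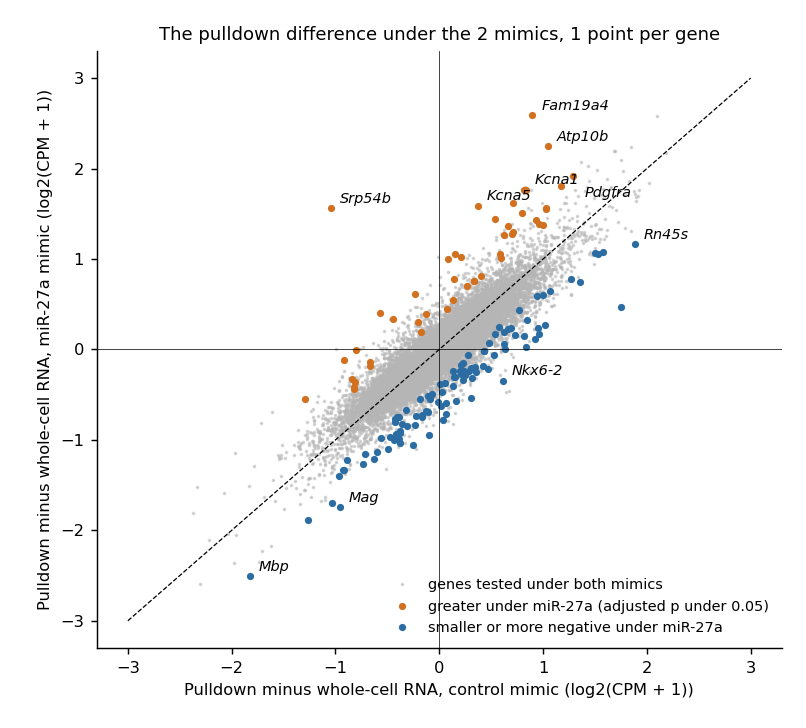
Difference between pulldown and whole-cell RNA under miR-27a mimic (vertical) against that under control mimic (horizontal) on the log2(CPM + 1) scale, 1 point per gene, with equality dashed and genes called in the test of the difference in orange (greater under miR-27a) or blue (smaller or more negative). The cloud follows the dashed line, and Srp54b, Fam19a4, Kcna5 and Atp10b lie farthest above it among the named genes.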

How the data were processed

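Total RNA of mouse OPCs was sequenced as paired ends on a HiSeq after ribosomal RNA depletion with a stranded TruSeq kit, per the series' design text. Per the same text, the authors trimmed reads with skewer, aligned them to GRCm38 with HISAT2, counted genes with featureCounts (Subread) and normalised with edgeR. Tool versions were not given in the sources used here, and the submitters' processing notes also name the mm8 build without a role. The deposited values are log2 CPM (counts per 1000000 reads) for 20540 genes in 12 libraries. Mitochondrially encoded mRNAs are not among these genes, so that list gave no value. Whole reads were recovered from the deposited values at a tolerance of 0.01 reads, for 100% of values, and CPM was computed without the offset that the authors' log2 carries.

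Genes with at least 1 CPM in 3 or more of the libraries compared were tested with limma 3.58.1 (R 4.3.3) on log2(CPM + 1), with empirical Bayes moderation and a mean trend, two-sided, Benjamini-Hochberg adjusted over all genes tested and called under 0.05. The same fit was made for control mimic, and the difference between mimics was tested as an interaction over 12 libraries. Before use, the fit was run on simulated counts with the same dispersion in pulldown and whole-cell libraries. That run does not cover the wider spread of the pulldown libraries. Gene lists were described by counts and medians and not tested. The comparison, the 40 lists set at the outset and the 7 added later were chosen with earlier results of these data known. The genes named were the 10 largest rises and falls among called genes with at least 5 CPM in the higher group, without overlap between groups and without provisional symbols. To these were added the 5 largest differences of each sign between mimics among called genes that passed like filters. Those were 5 CPM in the highest group, no overlap under miR-27a and no provisional symbol. Also added were up to 4 members of each list with the smallest p and the 6 genes with an 8mer site and the largest rises. A short set of lineage and control genes was added too. Some of the genes so named are not reported here. Annotation came from RefSeq (19737 symbols matched) and GENCODE M21 (19718 matched), both on GRCm38. Alternatives were other pseudocounts, filters and scalings, limma voom on the recovered reads, a replicate block, a fit of all 12 libraries and leaving out each replicate. Python 3.11.15, pandas 2.3.3, numpy 2.4.6 and matplotlib 3.10.9 were used.

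Replicate numbers were checked as pairs. Deviations from the group means correlated at 0.019, 0.170 and 0.145 between same-numbered pulldown and whole-cell libraries under miR-27a. Under control mimic these were -0.055, -0.099 and 0.014. The labels do not pair the libraries, and the numbers were not treated as pairs.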

Additional observations from a re-analysis of the deposited data

Results flagged for a closer look

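Of 219 named genes, not all reported above, 27 had a pulldown difference that was not the same under miR-27a and control mimic. These were called by the limma test of that difference over all 12 libraries, which called 149 of 13875 genes (1.07%) in all. Values are on the log2(CPM + 1) scale, with the control mimic's pulldown difference subtracted from that of miR-27a. They were chosen partly for their size, and those that were among the largest differences are a description.

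The pulldown difference was greater under miR-27a for 12 of them. Srp54b (2.60), Fam19a4 (1.69), Kcna5 (1.21), Atp10b (1.20), Capn6 (0.97), Kcna1 (0.93) and Kcnd2 (0.47) are described above. Pcdh15, a protocadherin gene, differed by 0.72, with rises of 1.51 under miR-27a and 0.80 under control mimic. Btg2 differed by 0.53 and Plk2 by 0.43, with rises of 0.70 and 0.26 for Plk2 under miR-27a and control mimic. Both hold an 8mer site. The mitotic genes Anln (0.41) and Top2a (0.38) changed by -0.41 and -0.44 under miR-27a and by -0.82 and -0.82 under control mimic. Among 28 G2/M genes 4 were called in this direction and 0 in the other, against 0.339% and 0.735% of all genes tested.

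For the other 15 the difference was smaller or more negative under miR-27a. Nkx6-2 (-0.96), Gng4 (-0.85), Scg2 (-0.85), Foxj1 (-0.81), Mag (-0.78), Mbp (-0.68) and Opalin (-0.44) are described above. Sirt2, a deacetylase gene of oligodendrocytes, differed by -0.41, with changes of -1.34 and -0.93. Gfap differed by -0.53, with changes of -1.14 and -0.60, and Fhl2 by -0.62, with changes of -1.89 and -1.27. Ssh3, a cofilin phosphatase gene, differed by -0.80, and its adjusted p was 0.0501 to 0.144 under most alternative settings. Arpc1b (-0.42), Tmem163 (-0.60) and Rab33a (-0.36) fell by more under miR-27a, at -1.34, -0.99 and -0.75, than under control mimic, at -0.92, -0.39 and -0.38. The ribosomal RNA precursor Rn45s rose by less under miR-27a (1.16) than under control mimic (1.88), a difference of -0.72.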

How the results depend on the processing

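Counts of genes higher and lower in the pulldown stayed within 1.5 times of their values under the alternatives run for either mimic. Leaving out 1 library gave 3216 to 4137 higher and 3240 to 4510 lower genes under miR-27a, 263 to 310 and 200 to 282 at 2-fold or more, and 4017 to 4294 and 3948 to 4369 under control mimic. The 2-fold counts moved to 451 higher with a pseudocount of 0.25 CPM, 115 higher and 107 lower with 5 CPM, and 540 higher and 361 lower with limma voom on the recovered reads, and library totals left 142 lower. The difference between mimics gave 30 greater and 43 smaller genes with no filter on low values, when more genes were tested, and 21 to 159 and 22 to 314 when 1 library was left out. The cause of these shifts was not tested.

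With the replicate block, 3972 genes were higher and 4158 lower under miR-27a, 4333 and 4276 under control mimic, and the difference between mimics called 45 and 94. Under miR-27a, pulldown replicates 2 and 3 correlated best with the whole-cell library of the same number (0.170 and 0.145), and replicate 1 with whole-cell replicate 3 (0.085). Under control mimic, pulldown replicates 1, 2 and 3 correlated best with whole-cell replicates 3, 1 and 2 (0.038, 0.139 and 0.078). The labels do not pair the libraries, so the block rests on the numbers alone.

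Among named genes and settings under miR-27a, 3212 of 3248 kept their side of the threshold, 29 lost the call and 7 gained it. A change of sign was counted only where the gene was called in either fit, and 0 were found. Medians close to 0 changed sign. Abundant small non-coding RNAs were at -0.187 with a filter of 5 CPM, -0.140 with a pseudocount of 5 CPM, and between -0.226 (without pulldown replicate 2) and 0.298 when 1 library was left out, below 0 also without whole-cell replicate 3 (-0.085). The integrated stress response was at 0.097 with library totals and between -0.031 and 0.033 when 1 library was left out, above 0 without pulldown replicate 1, pulldown replicate 3 or whole-cell replicate 2. Library totals also turned replacement histones (0.074), ubiquitin-conjugating enzymes (0.045) and the X-linked homologs (0.026). Leaving out 1 library put replacement histones between -0.071 and 0.037 and zinc finger genes between -0.038 and 0.081, and the sign turned in both without pulldown replicate 2. Published miR-27 targets were at -0.071 with a filter of 5 CPM. Below 0.116 to 0.2 CPM, the level of 3 reads, levels are not resolved at this depth.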
